A study of Homo sapiens with 7 samples.

Results

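YY1 and the chromobox (CBX) proteins CBX1, CBX2, CBX3, CBX5, CBX6, CBX7 and CBX8 were examined at every array probe that the platform annotation names for them. A total of 9 such probes, for 7 of the 8 genes, were among the 19337 probes tested, out of 47323 in the signal table, and these tested probes name 11389 genes in all. CBX8 was not analysed here. YY1 and CBX5 were treated as chosen on measured values, since a probe of each was lower in Dox on the authors' processed values (log2 differences of −0.25 and −0.26, adjusted p under 0.05), so their values at those probes are described without a test. The remaining 7 probes came in by gene or family name, and the lowest of these on the authors' values was CBX2, at −0.09.

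Expression was measured on Illumina HumanHT-12 BeadChip arrays in PC3, a prostate cancer cell line that was established from a metastasis in bone. Cells of both groups had been transduced with a modified TRIPZ lentiviral construct, in which doxycycline switches on HA-Flag-tagged MITFA, an isoform of the transcription factor MITF. The Dox group held 4 arrays of doxycycline-treated cells (replicates 1 to 4) and the No dox group 3 arrays of untreated cells (replicates 2, 3 and 4). Doxycycline-treated cells without the cassette were not analysed here, so the effects of doxycycline and of MITFA cannot be told apart. No source used here gives the doxycycline dose of the arrays, or says that replicates came from separate cultures, so p-values rest on a spread between arrays that could be technical. Between 15562 and 16618 probes were detected (detection p under 0.01) on an array, and all 9 YY1 and CBX probes were detected on all 7. The number of arrays limits the precision.

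YY1 is a zinc finger transcription factor that can activate or repress its targets, links enhancers with promoters, and is the human counterpart of Pleiohomeotic, a protein that brings Polycomb complexes to DNA in Drosophila. The CBX proteins share a chromodomain, a fold that reads methylated histone tails, and fall into a pair of families. CBX1, CBX3 and CBX5 are the heterochromatin proteins HP1β, HP1γ and HP1α, which bind histone H3 methylated at lysine 9 (H3K9) and hold chromatin compact. CBX2, CBX6, CBX7 and CBX8 are alternative subunits of Polycomb repressive complex 1 (PRC1) and bind H3 methylated at lysine 27, the mark that Polycomb repressive complex 2 (PRC2) writes.

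YY1 (GRCh38.p14, chr14:100239144-100282788) was read by a pair of probes that gave different values. Levels are given as log2 signal after background correction and quantile normalisation, and differences as Dox minus No dox on that scale. At the brighter probe (ILMN_1770892), YY1 had 10.68, 10.64, 10.62 and 10.58 in the Dox arrays, against 10.94, 10.87 and 10.87 in the No dox arrays. Each Dox array lay below each No dox array. The means were 10.63 ± 0.04 (SD, n = 4) in Dox and 10.89 ± 0.04 (SD, n = 3) in No dox, a difference of −0.26, or 0.834-fold. The signal intensity before any processing at this probe was 1749, 1668, 1565 and 1612 in Dox, against 2104, 1846 and 1997 in No dox. The authors' values, on which this probe was treated as chosen, derive from these intensities, so the separation here is no separate evidence. At the dimmer probe (ILMN_2181540), YY1 had 7.14, 7.28, 7.31 and 7.07 in Dox, against 7.26, 7.18 and 7.36 in No dox. Here the groups overlapped, and the difference was −0.07 with a 95% confidence interval of −0.25 to 0.12 from limma. The annotation assigns both probes to the same RefSeq transcript.

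CBX5 (chr12:54230942-54280122, minus strand), which encodes HP1α, was the member with the largest difference in either direction. Its probe (ILMN_1813028) had log2 signals of 8.22, 8.21, 8.07 and 8.18 in Dox, against 8.43, 8.50 and 8.51 in No dox. All 4 Dox arrays were below all 3 No dox arrays. The means were 8.17 ± 0.07 (SD, n = 4) in Dox and 8.48 ± 0.04 (SD, n = 3) in No dox, which gives −0.31, or 0.806-fold. Before any processing, the signal intensity was 374.6, 364.1, 321.4 and 360.5 in Dox, against 425, 412.3 and 444.3 in No dox. With 1 probe, CBX5 has no second reading on these arrays.

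**Figure D1:**
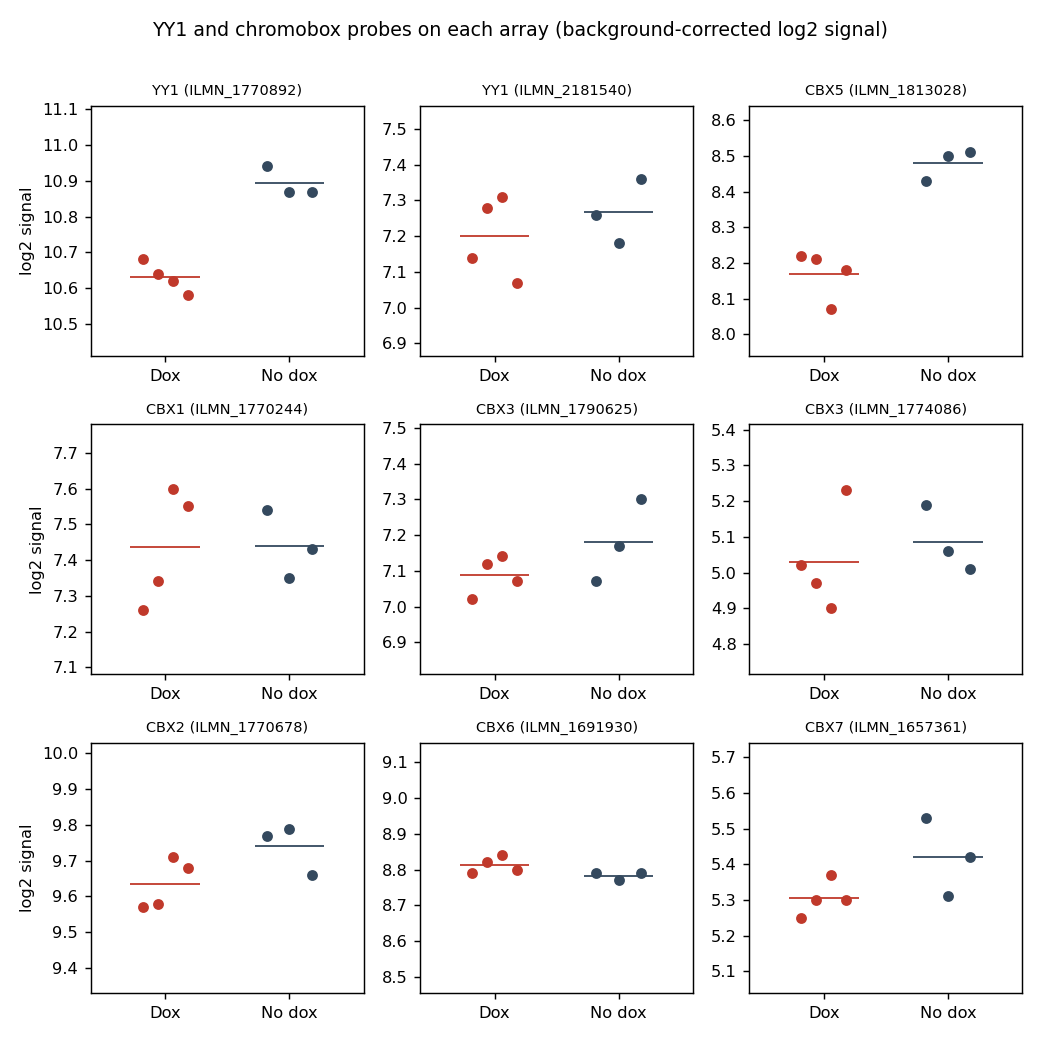
Background-corrected log2 signal of the 9 probes on each array, in Dox (red) and No dox (blue), 1 panel per probe. Points are arrays, lines are group means, and every panel spans the same height in log2 units. The brighter YY1 probe and the CBX5 probe, both treated as chosen on their values, lie lower in Dox without overlap. YY1 lies at 10.58 to 10.68 in Dox against 10.87 to 10.94 in No dox. CBX6 lies higher in Dox without overlap, by less than the second decimal shows. Of all tested probes, 4.24% lie entirely lower and 5.07% entirely higher in Dox.

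The promoters of these genes were read for the motifs of MITF and YY1, since MITF binds E-boxes and YY1 binds a core with the letters ATGG. RefSeq sequence (GRCh38.p14) was available for 6 of the genes, as the 250 bases before the gene starts that the table lists, and CBX2 and CBX8 were not read. The CBX1 window lies inside the annotated range of the gene, so the bases before its outermost start were not read. The promoters of CBX5 and YY1 are printed because their probes differed most between the groups, and capitals mark matches to CACGTG (the E-box) and AANATGGC (the YY1 motif core, a spelling chosen after the sequence was seen).
CBX5, chr12:54280123-54280372, minus strand: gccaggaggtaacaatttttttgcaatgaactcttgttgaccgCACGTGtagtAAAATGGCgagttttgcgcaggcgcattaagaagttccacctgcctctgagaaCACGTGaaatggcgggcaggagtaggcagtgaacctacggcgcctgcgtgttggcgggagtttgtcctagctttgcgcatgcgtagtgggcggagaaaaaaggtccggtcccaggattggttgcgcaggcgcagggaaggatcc
YY1, chr14:100238894-100239143, plus strand: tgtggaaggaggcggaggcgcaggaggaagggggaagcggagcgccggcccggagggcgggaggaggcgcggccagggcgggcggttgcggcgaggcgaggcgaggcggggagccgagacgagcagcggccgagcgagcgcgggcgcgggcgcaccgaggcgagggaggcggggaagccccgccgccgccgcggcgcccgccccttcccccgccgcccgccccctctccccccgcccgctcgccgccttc
CBX6, chr22:38872312-38872357, minus strand, the stretch around its E-box: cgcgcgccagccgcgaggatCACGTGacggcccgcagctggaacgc

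The CBX5 promoter held CACGTG at 2 positions, which begin 207 and 144 bases before the start, and AANATGGC at 1, which begins 197 bases before it. None of the matches overlap. CBX6 held 1 CACGTG, 121 bases before the start. No match to either spelling was found in the windows of YY1, CBX1, CBX3 and CBX7 or before the 2 further listed starts of CBX5. CATGTG, another E-box, was in no window of these genes. Both strands were searched. Among 35116 promoter windows of the same length, 6.34% held CACGTG, 0.535% held it at 2 or more positions, 9.42% held CATGTG and 3.86% held AANATGGC. The spelling AANATGGC was chosen after the sequence was seen, so nothing is read from its match in CBX5 or from its share. The shorter letters ATGG also stand unmarked elsewhere, as just after the CBX5 CACGTG at 144 bases and in the CBX7 window. A match describes the letters only, and binding was not measured here.

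**Figure D2:**
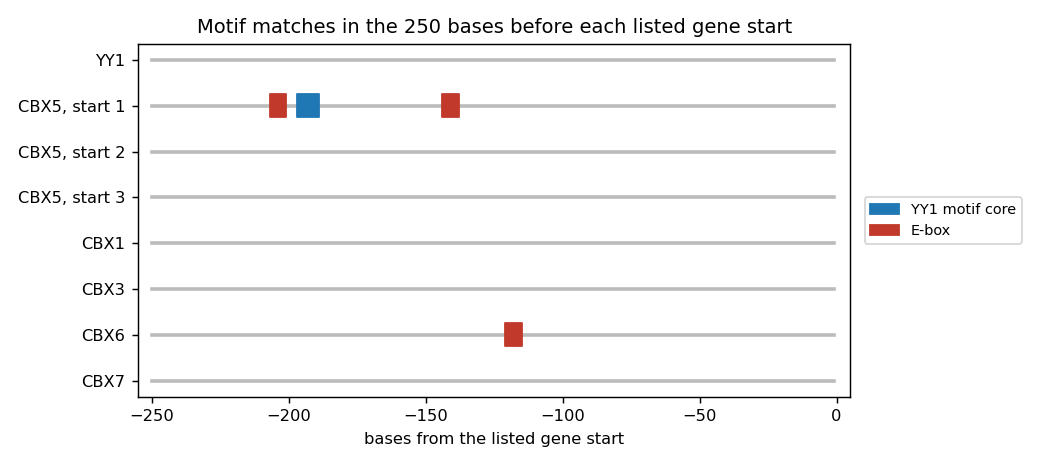
Positions of the E-box CACGTG (red) and the YY1 motif core (blue) in the 250 bases before each listed gene start, in bases from the start. Each grey line is 1 promoter window. CBX5 has 2 E-boxes and 1 YY1 motif core at its first start, and CBX6 has 1 E-box. The other windows have no match to these spellings. The core is spelled AANATGGC, chosen after the sequence was seen.

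Values of the other HP1 genes differed little between the groups. CBX1 (HP1β; chr17:48070059-48101478) had 7.26, 7.34, 7.60 and 7.55 in Dox, against 7.54, 7.35 and 7.43 in No dox. The Dox arrays spread on both sides of the No dox arrays, and the means were 7.44 ± 0.16 (SD, n = 4) in Dox and 7.44 ± 0.09 (SD, n = 3) in No dox. The 95% confidence interval of the fold from limma was 0.857 to 1.16. CBX3 (HP1γ, which is also found on transcribed genes; chr7:26201443-26213607) was read by a pair of probes that the annotation assigns to different transcripts. The brighter CBX3 probe (ILMN_1790625) had 7.02, 7.12, 7.14 and 7.07 in Dox, against 7.07, 7.17 and 7.30 in No dox, a difference of −0.09 (95% confidence interval −0.27 to 0.08). The dimmer CBX3 probe (ILMN_1774086) had 5.02, 4.97, 4.90 and 5.23 in Dox, against 5.19, 5.06 and 5.01 in No dox, a difference of −0.05 (95% confidence interval −0.26 to 0.15). Both CBX3 probes overlapped between the groups.

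Among the Polycomb members, no difference between the groups passed the test. CBX2 (chr17:79777311-79787983) had 9.57, 9.58, 9.71 and 9.68 in Dox, against 9.77, 9.79 and 9.66 in No dox. The No dox replicate 4 array lay among the Dox arrays, and the difference was −0.10 (95% confidence interval −0.26 to 0.06). CBX6 (chr22:38861422-38872216) had 8.79, 8.82, 8.84 and 8.80 in Dox, against 8.79, 8.77 and 8.79 in No dox. It was the one member above 0, at 0.03 with a 95% confidence interval of −0.11 to 0.17, and its lowest Dox array exceeded its highest No dox array by less than the second decimal shows. CBX7 (chr22:39130772-39152680) had 5.25, 5.30, 5.37 and 5.30 in Dox, against 5.53, 5.31 and 5.42 in No dox. Its difference was −0.11 (95% confidence interval −0.28 to 0.06), and the groups overlapped. CBX7 and the dimmer CBX3 probe lay near the background, with unprocessed signals of 104.7 to 113.5 for CBX7 and 95.59 to 104.4 for the CBX3 probe over the 7 arrays.

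Over all 19337 probes, limma called 26 (0.134%) higher and 0 (0%) lower in Dox at an adjusted p under 0.05, and 1643 had an unadjusted p under 0.05. None of the 9 YY1 and CBX probes was among the 26. On the authors' values, which carry no background subtraction, the same fit called 76 (0.393%) higher and 25 (0.129%) lower. The brighter YY1 probe and CBX5, 2 of the 9, are among those 25 by the choice itself, so nothing is read from that count. Of the 7 remaining probes, 0 were called on either set of values. Dox arrays lay entirely below No dox arrays at 0 of these 7, against 819 of all tested probes (4.24%), and on the authors' values again at 0 of 7, against 815 (4.21%). They lay entirely above at 1 of the 7, CBX6, against 980 of all tested probes (5.07%), and on the authors' values at 1 of 7 against 988 (5.11%). Differences at 6 of the 7 were below 0, CBX1 among them at −0.00 with a sign that changed under 6 of 18 alternatives. Of all tested probes, 49.7% were above 0, and their median was −0.00083.

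**Figure D3:**
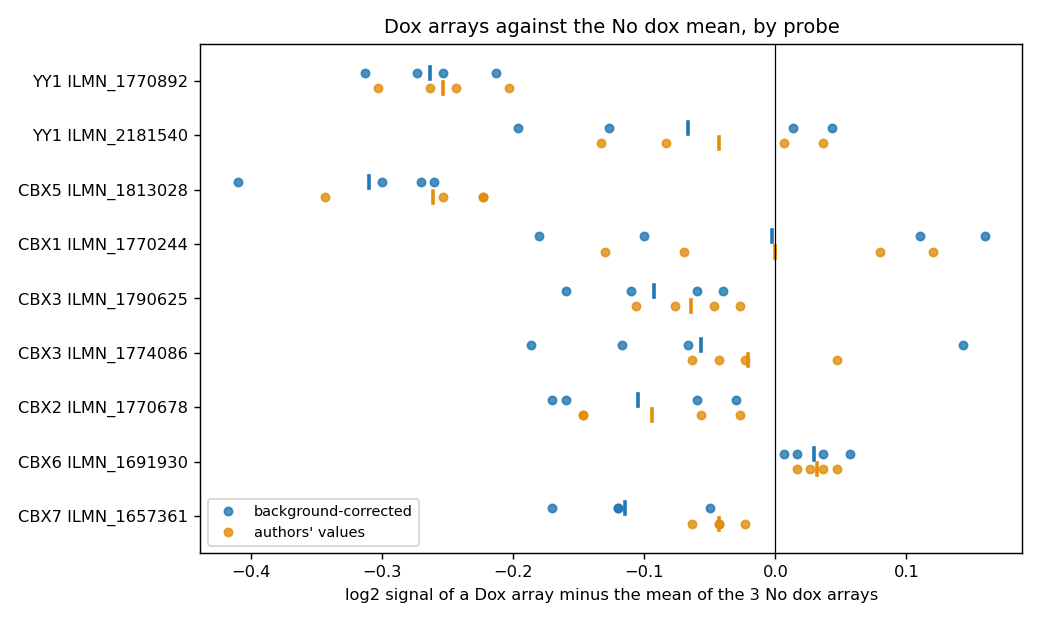
Log2 signal of each Dox array minus the mean of the 3 No dox arrays, for the 9 probes, on background-corrected values (blue) and on the authors' values (orange). Points are Dox arrays and bars their means. All 4 points of the brighter YY1 probe and of CBX5 lie left of −0.2 on both sets of values. Both probes are treated as chosen on their values.

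Probes of 1 gene were compared on the same array. The brighter YY1 probe exceeded the dimmer by 3.54, 3.36, 3.31 and 3.50 log2 units in Dox, against 3.68, 3.69 and 3.50 in No dox. The gap averaged 3.43 ± 0.11 (SD, n = 4) in Dox and 3.62 ± 0.11 (SD, n = 3) in No dox, a difference of −0.20, and the groups overlapped at 3.50. No test was made of it, since the brighter probe is one of those treated as chosen on its values. For CBX3 the gap between brighter and dimmer probe was 1.99, 2.15, 2.24 and 1.83 in Dox, against 1.89, 2.10 and 2.29 in No dox. The difference of −0.04 did not pass a two-sided exact permutation test over the 35 splits of the arrays (p = 0.771, the smallest possible being 0.0286), and its 95% interval ran from −0.55 to 0.40, which leaves room for unequal changes of the CBX3 probes.

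CBX5 was also set against its HP1 relatives within each array. CBX5 minus CBX1 was 0.96, 0.87, 0.47 and 0.63 in Dox, against 0.89, 1.15 and 1.08 in No dox, with overlap. CBX5 minus the brighter CBX3 probe was 1.20, 1.10, 0.93 and 1.11 in Dox, against 1.36, 1.34 and 1.22 in No dox, with no overlap. Each is a change in a gap between probes, and the gap itself is no ratio of transcripts. No test was made of either gap, since the CBX5 probe is treated as chosen on its values. The choice carries over into these gaps, so nothing is read from the separation.

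**Figure D4:**
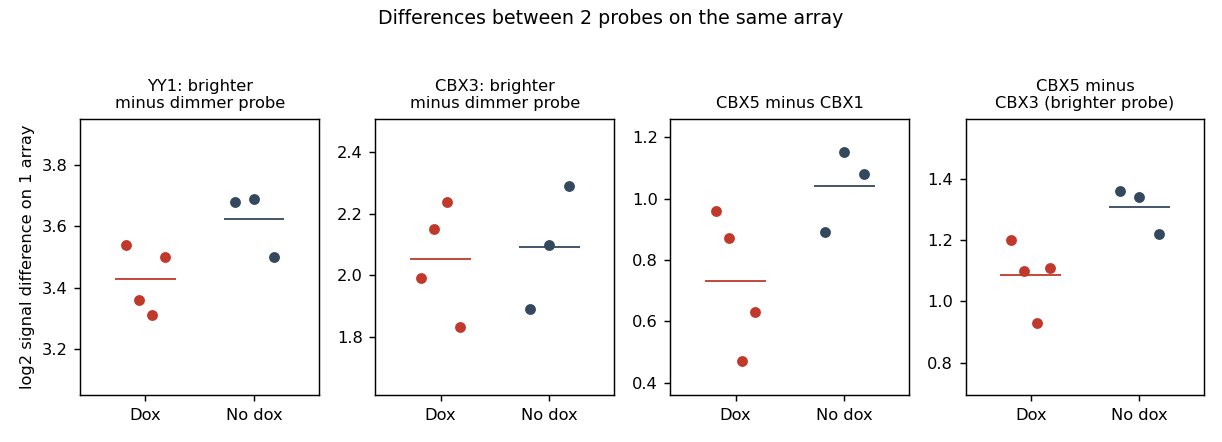
Difference in log2 signal between a pair of probes on the same array, in Dox (red) and No dox (blue), for the YY1 probes, the CBX3 probes, CBX5 minus CBX1 and CBX5 minus the brighter CBX3 probe. Points are arrays and lines group means. The groups overlap in all panels but the last, where Dox lies at 0.93 to 1.20 and No dox at 1.22 to 1.36. That panel includes the CBX5 probe, which is treated as chosen on its values.

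The partners of these proteins were followed in 11 gene lists, with the brightest tested probe for each gene. These lists also hold genes that are not partners, namely HOX genes, promoter neighbours and proliferation genes. Of 176 distinct genes tested, 0 were called in either direction by limma, on background-corrected or on the authors' values, and 7 had an unadjusted p under 0.05. The smallest adjusted p was 0.353, for DNMT3B. Differences above 0 made up 44.3% of the 176, and the median was −0.01. Dox lay entirely below No dox in 11 of them (6.25%, against 4.24% of all tested probes) and entirely above it in 0 (against 5.07%).

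PRC1 genes formed a list of core and accessory subunits that do not all share a complex with the CBX proteins. RNF2 and AUTS2 were not tested. Of the 26 genes measured among 28, 8 were above 0, with a median of −0.02. BMI1, a ring finger subunit, averaged 11.15 ± 0.05 (SD, n = 4) in Dox and 11.28 ± 0.05 (SD, n = 3) in No dox, with Dox arrays below all No dox arrays and an adjusted p of 0.671 from limma. SCML2 had −0.17, L3MBTL2 −0.15 at its brightest probe and 0.03 at another, and SCMH1 −0.14 and 0.09. For PRC2, 5 of 13 genes were above 0 and the median was −0.06. SUZ12, a core PRC2 subunit, had −0.19 and PHF1, an accessory one, −0.10, whereas EZH2, the H3K27 methyltransferase, had 0.02. In the PR-DUB list, the BAP1 deubiquitinase complex that removes the histone mark set by PRC1, 6 of 8 measured genes were above 0 with a median of 0.06, FOXK2 at 0.12, OGT at 0.08 and ASXL2 at −0.12.

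YY1 is also a subunit of the INO80 chromatin remodeller, of which 9 of 14 genes were above 0 with a median of 0.01 (TFPT 0.17, MCRS1 −0.10 at its brightest probe and 0.09 at another, and the ATPase INO80 0.09 at its brightest probe, with −0.10 and −0.15 at others). Relatives and cofactors of YY1 were above 0 in 6 of 15, with a median of −0.07. Among them YY2, a retrogene of YY1, had −0.30 at a dim probe detected on 4 of 7 arrays, and its adjusted p from limma was 0.513. MBTD1 had −0.22 at a dim probe detected on 6 of 7 arrays, and −0.19 at another detected on 4 of 7. YY1AP1 had −0.14, CTCF −0.10, and the deacetylases HDAC1 and HDAC2 0.09 and 0.03.

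HP1 partners were above 0 in 11 of 26, with a median of −0.01. DNMT3B, a de novo DNA methyltransferase, averaged 6.07 ± 0.07 (SD, n = 4) in Dox and 6.34 ± 0.04 (SD, n = 3) in No dox, a difference of −0.26. A second DNMT3B probe, detected on all 7 arrays, had −0.15, also with Dox entirely below No dox, and another, detected on 2 of 7, had 0.17. ZNF462 had −0.26 and KMT5B, a methyltransferase for histone H4 lysine 20, −0.23, with −0.05 at its other probe. TRIM28, the corepressor that recruits HP1, had −0.02. The enzymes that write or erase H3K9 methylation were above 0 in 8 of 18, with a median of −0.03. Among them SUV39H1 had 0.02, SETDB1 −0.06, and WIZ −0.13 at a dim probe detected on 5 of 7 arrays. Other chromodomain proteins were above 0 in 11 of 21, with a median of 0.01, and ARID4B had −0.26 at its brightest probe with −0.08 and −0.20 at others, CHD8 −0.13 and MPHOSPH8 0.11.

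CBX5 and CBX3 lie head to head with genes of nuclear RNA-binding proteins, HNRNPA1 at a distance of 603 bases from CBX5 and HNRNPA2B1 at 696 bases from CBX3. HNRNPA1 had −0.07 at its brightest probe and 0.18 at another. At that other probe Dox lay entirely above No dox, as at 5.07% of all tested probes. HNRNPA2B1 had 0.00 at its brightest probe and −0.03, −0.12 and 0.06 at others. HOX genes, the classical Polycomb targets, were detected on at least 1 array for 12 of 39, with 5 above 0 and a median of −0.03. HOXD13 had −0.27, HOXB13 −0.03, and HOXB6 −0.14 at its brightest probe and 0.05 at another, each detected on 2 of 7 arrays. HOXB2, HOXB3 and HOXD8 were detected on 1 of 7 arrays, HOXD3 on 4 and HOXA2 on 5, so several of these values lie near background. EZH1, KDM4C and HOXB2 were not above background on any Dox array, and PHF8 on no No dox array, and no fold is given for them. Over the 11 lists, PCGF3 and CHD5 were likewise detected on no Dox array, and HOXB3, HOXD8, MBD5 and PRDM2 on no No dox array. All of these genes enter the list counts and medians at their measured values.

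**Figure D5:**
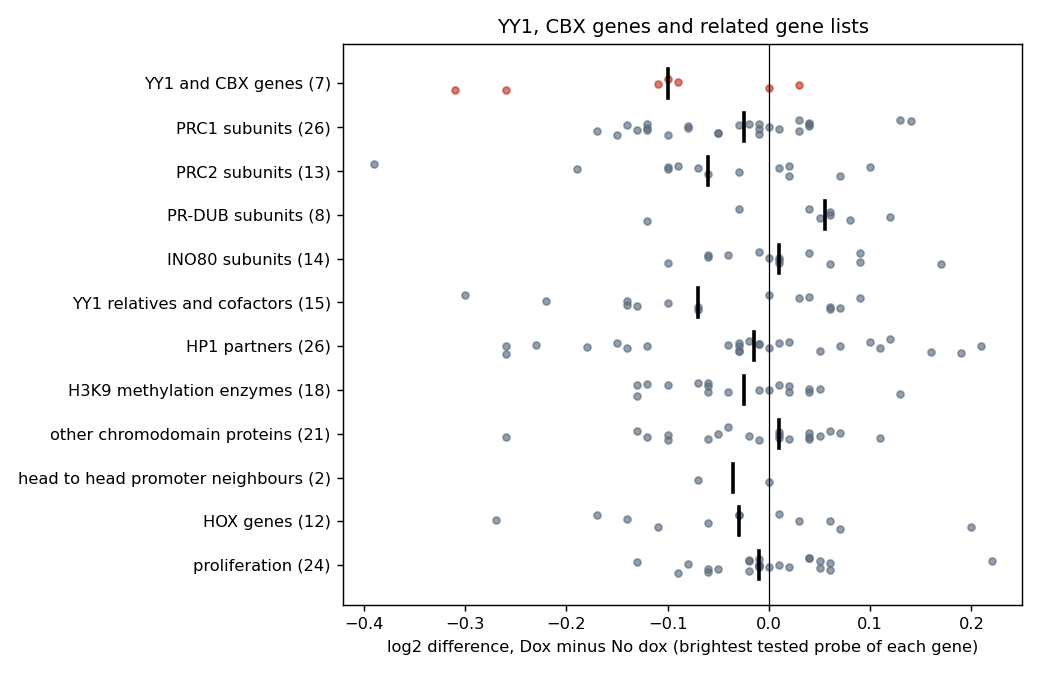
Log2 difference, Dox minus No dox, at the brightest tested probe of each gene, for the YY1 and CBX genes (red) and 11 gene lists (grey), with the number of measured genes in brackets. Points are genes and black bars medians, and genes below background in a group are drawn at their measured values. CBX5 (−0.31) and YY1 (−0.26) lie at the low end of their row, and the list medians lie between −0.07 and 0.06.

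Proliferation genes formed the last of the 11 lists. Of 24 measured, 10 were above 0, with a median of −0.01. CDK1 had −0.13 at its brightest probe and 0.04 at another, and MCM3 −0.09 and −0.04. TOP2A had 0.05, and E2F1 0.22 at a dim probe detected on 3 of 7 arrays. The summed signal of the 24 genes was 19710 to 20210 in Dox and 20120 to 20380 in No dox, and these ranges overlapped. The summed signal of the epithelial list, of which 5 of 6 genes were tested, was 5745 to 5828 in Dox and 5208 to 5486 in No dox, without overlap. That list includes VIM, an intermediate filament of mesenchymal cells, which averaged 12.03 ± 0.02 (SD, n = 4) in Dox and 11.86 ± 0.09 (SD, n = 3) in No dox, and without VIM the sum over 4 genes was 1528 to 1659 in Dox and 1500 to 1704 in No dox, with overlap. Differences of those 4 were 0.13 for KRT8, −0.01 for KRT19, −0.09 for EPCAM and −0.07 for CDH1. The part of these lists in the YY1 and CBX5 values was not tested. KRT19 and KRT8, epithelial keratins, were detected on all 7 arrays. Of the prostate luminal markers, low or absent in PC3, 0 of 6 were tested, of the blood markers 2 of 5 (CD14 and HBB), and of the fibroblast and endothelium markers 3 of 5.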

How the data were processed

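RNA of 7 samples was hybridised to Illumina arrays. The authors deposited scanner output for 47323 probes, giving each an intensity and a p-value of detection per array, and log2 values for those 19337 whose detection p-value fell below 0.01 on 1 array or more. Their methods name background correction, log2 transformation and quantile normalisation with lumi, but the deposited log2 values equalled quantile-normalised log2 intensity without background subtraction (largest difference 5.151e-14). Here intensity was corrected with neqc of limma (version 3.58.1, R 4.3.3; controls inferred from detection p-values, offset 16), which raises the differences of dim probes. The 19337 probes were fitted with limma as a pair of group means, with Benjamini-Hochberg adjustment. The fit was tested on simulated data. Gene names come from the platform annotation (15060 probes with 1 name, 2 with several, 4275 with none). The members and lists were chosen with earlier results of these data known. Named genes were all members, up to 3 genes of smallest p per list, and the 5 probes most like YY1 and CBX5. BMI1, EZH2, CTCF, HDAC1, HDAC2, TRIM28, SUV39H1, SETDB1, HOXB13, TOP2A, EPCAM, CDH1, KRT8, KRT19 and VIM were added after their values were seen. HOXA2, HOXB3, HOXD3, HOXD8, PCGF3, CHD5, MBD5 and PRDM2 are also outside that rule and are named for their detection only. Alternatives changed the background correction, normalisation and filters, used the authors' values, array weights or an intensity trend, added the replicate number as a block, or left out an array.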

Additional observations from a re-analysis of the deposited data

How the results depend on the processing

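The differences of the brighter YY1 probe (−0.28 to −0.23), CBX5 (−0.34 to −0.26), CBX2, both CBX3 probes, CBX6, CBX7 and the dimmer YY1 probe kept their sign under all 18 alternatives, while CBX1 changed sign in 6. The alternatives are not separate checks. Filters and the intensity trend leave the difference itself unchanged, and others share the same arrays or nearly the same values. For the brighter YY1 probe and CBX5, the sign was also part of the choice. The number of called YY1 and CBX probes was 0, but 2 with no background correction, with the authors' values and with an intensity trend, which are the brighter YY1 probe and CBX5 each time. The 26 called probes (26 higher, 0 lower) became 101 (76 higher, 25 lower) on the authors' values and likewise with no background correction, 132 (93 higher, 39 lower) with an intensity trend, and 2 were lower with probes detected on every array of a group. With the replicate block on the 6 arrays numbered 2, 3 and 4, 6 probes were called, all higher, against 18 on the same arrays without it, a fit added after seeing the data. Same-numbered arrays did not deviate together (r of −0.05, 0.00 and −0.01), and 0 of 6 correlated best with their own number. Leaving out 1 array gave 12 to 18 called, 12 to 18 higher and 0 to 1 lower, with 16 without Dox replicate 2 and 14 without Dox replicate 4. It was 13 when No dox replicate 2 was absent, 12 for No dox replicate 3, and 17 higher with 1 lower for No dox replicate 4. The called YY1 and CBX probes and list genes stayed at 0 in each of these. The gap between the YY1 probes changed by −0.26 to −0.16 and that between the CBX3 probes by −0.14 to 0.06. Signal near background limits CBX7 and the dimmer CBX3 probe. The columns name no chip, so none was fitted as a block.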

Other observations

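The pseudogene YY1P2, which resembles YY1 in sequence, has a dim probe (ILMN_3284530) detected on 4 of 7 arrays, at 4.73 ± 0.15 (SD, n = 4) in Dox and 4.66 ± 0.36 (SD, n = 3) in No dox, a difference of 0.07.

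Deviations from the group means were compared over the 7 arrays, which share libraries across all probes, as a description. The probes of named genes that varied most like the brighter YY1 probe were PTPRU (r = 0.994), DDX41 (0.987), PCGF6 (0.982), TNS4 (0.981) and SETD9 (0.975), and 136 probes were above 0.9. For CBX5 they were NUTM2A-AS1 (r = 0.994), CALML4 (0.991), RACGAP1 (0.99), CTBS (0.986) and SSRP1 (0.984), and 142 probes were above 0.9. These are the highest of many r values over few arrays. How many would exceed 0.9 without any link was not computed, so no shared regulation is read from them. The brighter YY1 probe and the dimmer one had r = 0.11, and the CBX3 probes −0.63. CBX5 had −0.84 with CBX1, −0.74 with CBX2, −0.72 with CBX7 and −0.67 with CBX6. With the dimmer YY1 probe it had −0.33, with the brighter one −0.04, and with the CBX3 probes 0.04 and 0.1.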
